A study of Mus musculus with 20 samples.

Results

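The sites described here are the distal binding sites of MAZ in mouse embryonic stem cells (mESCs) at which cohesin was never called. They were read from ChIP-seq peak lists, in which a peak marks a stretch of genome where more immunoprecipitated fragments piled up than in the local background. A MAZ peak of WT was taken when it overlapped by 1 bp no peak of any of the 4 RAD21 lists and no CTCF peak of WT, and when its summit lay more than 1 kb from every transcript start of the GENCODE vM21 basic annotation (mm10). Of 6265 MAZ peaks in WT, 1466 had a summit that far from a start, 1349 of these overlapped no CTCF peak, and 846 also overlapped no RAD21 peak. These 846 sites are 13.5% of the MAZ peaks of WT and 57.7% of the distal ones. They were selected on measured peak calls, so the absence of a CTCF or RAD21 peak at them is the rule and not a finding, and absence means only that no peak was called.

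The cells were E14 mESCs whose CTCF carries an auxin-inducible degron tag, grown with LIF and inhibitors of MEK and GSK3, and all 4 conditions share that background. They were untreated (WT), given auxin for 2 days to degrade CTCF (ΔCTCF), a Maz knockout line of the same background, B2, left untreated (ΔMAZ), or that line given auxin (ΔCTCF/ΔMAZ). The knockout is represented by that line alone, and there was 1 peak list for each of CTCF, MAZ and RAD21 in each condition, so the differences below are between single libraries and are given with no p-value. Intervals are 95% intervals and cover counting error over peaks only. The knockout MAZ lists held 33 peaks each and the MAZ list of ΔCTCF held 6759, while CTCF peaks went from 26394 in WT to 2381 in ΔCTCF. None of the 846 sites overlapped a MAZ peak of either knockout list, that is, 0 in ΔMAZ and 0 in ΔCTCF/ΔMAZ. With 33 peaks in each of those lists, few MAZ peaks of any class could overlap one, so this does not set the 846 sites apart. None overlapped a CTCF peak of ΔCTCF or of ΔCTCF/ΔMAZ, and 3 overlapped a CTCF peak of ΔMAZ. The rule had already left out sites with a CTCF peak of WT, so these CTCF counts are not independent of it.

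MAZ is a zinc finger protein that binds G-rich DNA, much of it at promoters, and has been described as an insulation factor that works beside CTCF. Cohesin is the ring complex, with RAD21 as a subunit, that extrudes chromatin loops and comes to rest at barriers such as CTCF.

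The sequences under the summits show what these sites have in common and where they differ. For 10 of them the summit base and 50 bp on each side of it are printed, 5′ to 3′ on the plus strand of mm10: the 7 strongest in WT, the 2 strongest that were not called in ΔCTCF, and the strongest of a run of sites beside Kdm6b. Capitals mark either the core of the MAZ motif, GGGAGGG on either strand, or the letters AATTCCT on either strand. The AATTCCT string was chosen after the strongest sequences had been seen. The windows lie at chr15:79878902-79879002 (nearest gene Gm49412), chr4:129382076-129382176 (Gm12980), chr14:54575782-54575882 (intron of Ajuba), chr2:20508570-20508670 (intron of Etl4), chr3:97683958-97684058 (nearest gene Mir7225), chr4:136147902-136148002 (nearest gene Id3) and chr5:142451771-142451871 (intron of Foxk1). Those of the sites lost from the ΔCTCF list lie at chr15:78928244-78928344 (intron of Lgals1) and chr5:135946862-135946962 (nearest gene Ywhag), and the Kdm6b window lies at chr11:69417601-69417701, outside the gene.
Gm49412: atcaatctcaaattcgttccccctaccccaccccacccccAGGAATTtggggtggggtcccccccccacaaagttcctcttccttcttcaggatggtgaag
Gm12980: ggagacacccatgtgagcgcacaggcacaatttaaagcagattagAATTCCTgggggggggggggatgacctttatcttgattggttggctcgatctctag
Ajuba: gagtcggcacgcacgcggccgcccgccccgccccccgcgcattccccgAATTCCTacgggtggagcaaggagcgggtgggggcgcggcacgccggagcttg
Etl4: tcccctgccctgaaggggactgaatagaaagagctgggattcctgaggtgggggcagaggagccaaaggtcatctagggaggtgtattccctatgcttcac
Mir7225: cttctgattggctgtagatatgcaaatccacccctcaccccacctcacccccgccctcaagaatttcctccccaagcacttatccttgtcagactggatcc
Id3: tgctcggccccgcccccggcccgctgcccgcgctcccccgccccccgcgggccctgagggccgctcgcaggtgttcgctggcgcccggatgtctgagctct
Foxk1: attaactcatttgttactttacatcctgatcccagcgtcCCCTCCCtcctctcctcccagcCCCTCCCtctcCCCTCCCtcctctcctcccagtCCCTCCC
Lgals1: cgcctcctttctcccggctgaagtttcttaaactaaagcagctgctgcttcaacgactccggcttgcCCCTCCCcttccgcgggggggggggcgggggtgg
Ywhag: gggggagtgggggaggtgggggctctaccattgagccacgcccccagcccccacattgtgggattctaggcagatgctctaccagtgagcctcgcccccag
Kdm6b: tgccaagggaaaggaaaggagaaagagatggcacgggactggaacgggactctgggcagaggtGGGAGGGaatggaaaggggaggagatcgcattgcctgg

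In these windows runs of G or of C lie close to the summit, but the exact MAZ core is absent from the 6 strongest sites and is present 4 times at the Foxk1 site. Of the 10 strongest sites, 2 held the core within 50 bp of the summit. Over all 846 sites the core was common: 346, or 40.9% (37.6 to 44.2), held it within 50 bp of the summit, and 115, or 13.6% (11.4 to 16.1), held it at 2 or more positions, with at most 5. In windows of the same length 1 kb to either side of the same summits it was found in 5.61% (4.61 to 6.82) of 1692. Where the core was present, its centre lay a median of 16.0 bp from the summit.

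The density of the core peaked at the summit and fell to a flat level on both sides. Within 25 bp on either side of the summit there were 7.28 and 6.86 cores per kb of sequence, against 1.04 in the outermost 25 bp on the upstream side of the plus strand and 0.946 on the other. At promoter MAZ sites without RAD21 the same 2 central bins held 5.12 and 4.38 cores per kb. Promoter sites here are the 3022 MAZ peaks of WT that overlapped no CTCF peak of WT and no RAD21 peak but whose summit lay within 1 kb of a start. The core was found near the summit at 32.9% (31.2 to 34.6) of them, and the distal sites without RAD21 were 8.01 percentage points (4.33 to 11.7) higher. Distal MAZ sites that did overlap RAD21 in some condition and no CTCF peak of WT, 503 in number, held it at 34.2% (30.2 to 38.4), and here the distal sites without RAD21 were 6.70 points (1.34 to 11.9) higher.

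**Figure D1:**
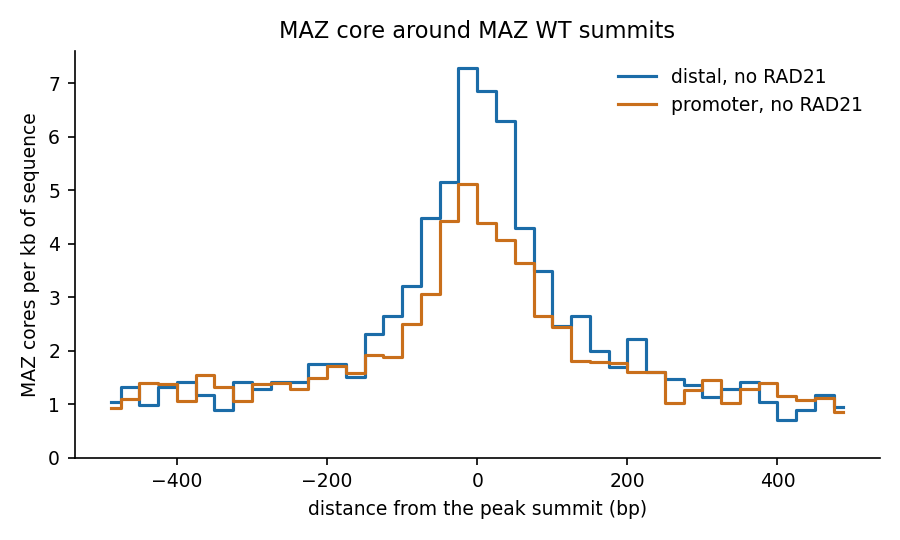
Density of the MAZ core, GGGAGGG on either strand, in 25 bp bins (cores per kb of sequence, vertical axis) against the distance from the peak summit (bp, horizontal axis) at 846 distal and 3022 promoter MAZ sites without RAD21. Both lines are highest at the summit, where the distal sites reach 7.28 and the promoter sites 5.12 cores per kb, and lie near 1 core per kb at the edges.

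Other strings were searched on both strands of the same windows, and overlaps between strings were allowed. The GC box GGGCGG, which Sp and Klf proteins bind, was found at 33.3% (30.2 to 36.6) of the 846 sites, against 4.91% of the windows beside them, 63.9% of promoter sites and 26.2% of distal sites with RAD21. A run of 7 G (GGGGGGG) was found at 11.2% (9.27 to 13.5), against 2.36% beside. The AP-1 string TGACTCA stood at 19 sites, 2.25% (1.44 to 3.48), and the octamer ATGCAAAT, read by OCT4 and its relatives, at 12 sites, 1.42% (0.813 to 2.46). Both shares were above those at promoter sites, by 1.45 points (0.561 to 2.71) for AP-1 and by 1.25 points (0.609 to 2.3) for the octamer, and the AP-1 share was 1.65 points (0.253 to 2.95) above that of distal sites with RAD21. For the octamer the difference to distal sites with RAD21 was 0.623 points, with an interval from -0.749 to 1.77. Beside the summits the AP-1 string was found in 1.36% (0.907 to 2.03) of windows and the octamer in 0.236% (0.0920 to 0.606). The ETS string CCGGAAG and the NRF1 string GCGCATGCG were rarer than at promoters, at 2.13% against 6.45% and at 0.355% against 1.65%. The CACGTG E-box, the ESRRB string TCAAGGTCA, the CTCF core AGGGGGCGC and the YY1 string AAGATGGCG stood at 23, 4, 5 and 2 of the 846 sites.

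The AATTCCT string stood within 50 bp of the summit at 4 of the 10 strongest sites and at 12 of the other 836. Over 5 equal groups of fold enrichment of the WT MAZ list it was found at 0 of 207 sites in the weakest group (which allows a share of up to 1.82% by the Wilson interval), then at 2 of 231, 4 of 175, 3 of 142 and 7 of 91 in the strongest. All 7 in the strongest group overlapped a MAZ peak of ΔCTCF and so were called there, as were 94.0% of all MAZ peaks in that strength group and 66.3% of all MAZ peaks of WT. Distal sites with RAD21 also held it, at 2 of their 10 strongest and at 1.79% of all 503, beside 1.89% of the 846 sites. Among promoter sites it stood at 0 of the 10 strongest and at 13 of all 3022, and in the windows beside the 846 sites at 22 of 1692, or 1.30%. As this string was picked from the strongest sites, the counts are a description only.

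The 846 sites were GC-rich but mostly poor in CpG. The median GC content over 250 bp on each side of the summit was 55.9% (54.9 to 56.5), against 67.7% at promoter sites and 53.9% at distal sites with RAD21. A window counted as CpG-rich with a GC content of at least 50% and an observed over expected CpG ratio of at least 0.6, limits that are commonly used to define CpG islands. By that measure 196 sites, 23.2% (20.4 to 26.1), were CpG-rich, against 87.3% of promoter sites, a difference of -64.2 points (-67.1 to -61.0). The share differed from the 20.7% of distal sites with RAD21 by 2.49 points, with an interval from -2.14 to 6.93. It was above that of windows of the same length 2 kb to either side, of which 5.67% (4.67 to 6.88) were CpG-rich. Sequence marked as repeat in the reference took up more than 50% of the 50 bp on each side of the summit at 113 sites, 13.4% (11.2 to 15.8), against 2.68% of promoter sites. The difference of 3.22 points to the 10.1% of distal sites with RAD21 had an interval from -0.417 to 6.61. At these mostly repeat sites 62 of 113, 54.9% (45.7 to 63.7), were called in ΔCTCF, against 370 of the other 733, 50.5% (46.9 to 54.1). Over strength groups the odds ratio was 1.11 (0.726 to 1.70), which did not separate them. Of all 846 sites 51.1% were called, and of all MAZ peaks of WT 66.3%.

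By position, introns and the space between genes held nearly all of the sites, and which of these held more depended on the annotation. The summit lay in an intron at 416 sites, 49.2% (45.8 to 52.5), and outside every annotated transcript at 376, 44.4% (41.1 to 47.8). With protein coding genes only, 44.7% were intronic and 49.9% outside genes. Coding exons held 23, untranslated regions 23 and exons of noncoding transcripts 8. Introns held more of these sites than of distal sites with RAD21, of which 42.1% were intronic, a difference of 7.03 points (1.52 to 12.4), and the share outside genes differed from the 51.5% of that class by -7.05 points (-12.5 to -1.54). The share outside genes was near the 45.3% of all MAZ peaks of WT, and its difference to the 42.3% of promoter sites was 2.15 points (-1.60 to 5.95). Of the 416 intronic summits, 210, or 50.5% (45.7 to 55.3), lay in a first intron, 83 in a second and 123 in a later intron. The lowest intron number was taken over all transcripts, of any gene, with an intron at the summit. Intron numbers are given for these sites only, so the share is not set against another class.

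**Figure D2:**
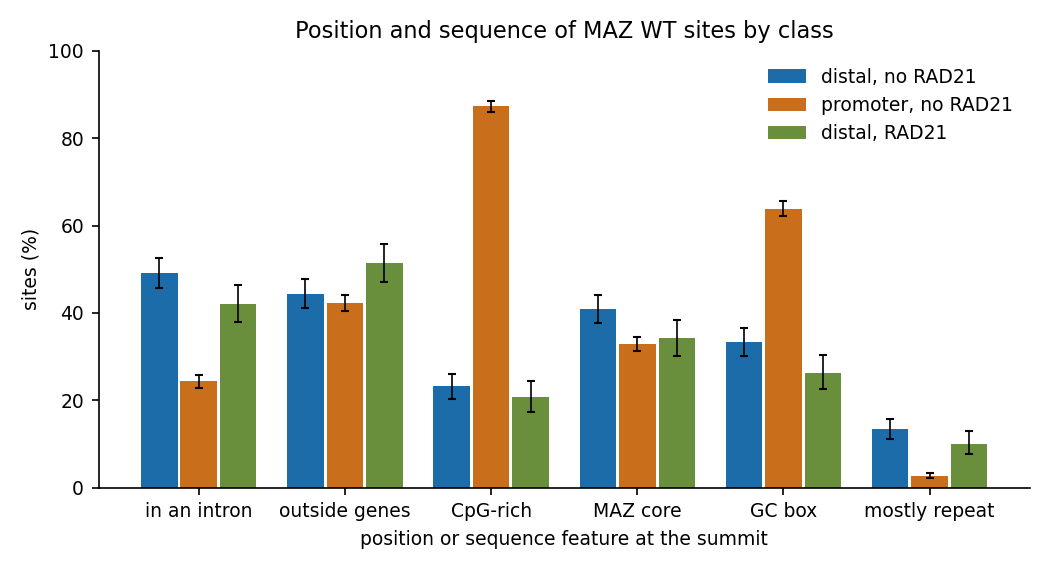
Share of sites (%, vertical axis) with each position or sequence feature at the summit (horizontal axis) for 846 distal MAZ sites without RAD21, 3022 promoter MAZ sites without RAD21 and 503 distal MAZ sites with RAD21, with Wilson 95% intervals as bars. The distal sites without RAD21 resemble the promoter sites in neither CpG content (23.2% against 87.3%) nor GC boxes (33.3% against 63.9%), while their MAZ core share of 40.9% is the highest of the 3 classes.

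The nearest transcript start lay a median of 7212 bp (6075 to 8012) away, with the farthest at 278745 bp. Of the 846 sites, 157 lay within 2 kb of a start, 198 between 2 and 5 kb, 152 between 5 and 10 kb, 285 between 10 and 50 kb, 44 between 50 and 100 kb and 10 farther out. CpG-rich windows made up 36.3% (29.2 to 44.1) within 2 kb and 15.1% (11.4 to 19.7) between 10 and 50 kb. Farther out the share did not go lower, with 15.9% (7.93 to 29.4) between 50 and 100 kb and 2 of the 10 sites beyond. The MAZ core share was 40.1% (32.8 to 47.9) in the nearest of these groups and 44.2% (38.6 to 50.0) between 10 and 50 kb, with intervals that overlapped. The nearest start belonged to a protein coding gene at 510 sites, 60.3%, to a lincRNA at 94, to a processed pseudogene at 68 and to a microRNA at 30. The summit lay downstream of the nearest start, in the direction of its transcription, at 457 sites, 54.0% (50.6 to 57.4).

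The limit of 1 kb divides a continuous range. The 3 sites just inside it lay 1002, 1003 and 1005 bp from a start, with fold enrichments of 3.48, 3.74 and 4.30, the second of them in an intron of Sfpq and the last beside Mafa. The 3 otherwise alike MAZ peaks just outside it lay 1000, 995 and 988 bp away, with fold enrichments of 11.1, 4.71 and 11.7. Against the transcript starts of the full GENCODE vM21 annotation, which adds partial and minor transcripts, 129 of the 846 sites, 15.2% (13.0 to 17.8), were within 1 kb of a start.

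**Figure D3:**
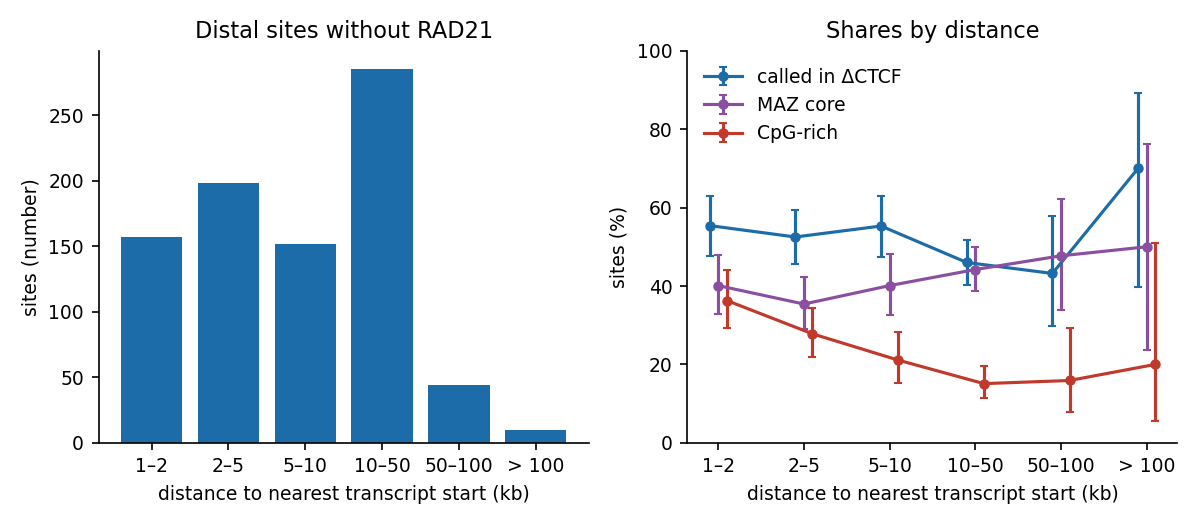
Left, number of distal MAZ sites without RAD21 (vertical axis) by distance to the nearest transcript start (kb, horizontal axis). Right, share of these sites (%) called in ΔCTCF, with a MAZ core or CpG-rich in each distance group, with Wilson 95% intervals as bars; the CpG-rich share goes from 36.3% within 2 kb to 15.1% between 10 and 50 kb.

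Cohesin and CTCF were called in the neighbourhood of many of the sites, as they were for MAZ peaks in general. A RAD21 summit of some list lay within 10 kb at 480 sites, 56.7% (53.4 to 60.0), beside 66.8% of all MAZ peaks of WT, a figure that includes peaks overlapping RAD21, and 44.7% of promoter sites. A CTCF summit of WT lay that near at 393 sites, 46.5% (43.1 to 49.8), beside 42.9% of all MAZ peaks of WT. The CTCF share was 9.62 points (5.86 to 13.4) above the 36.8% of promoter sites, and its difference of 5.30 points to the 41.2% of distal sites with RAD21 had an interval from -0.183 to 10.7. Another MAZ summit lay within 10 kb at 277 sites, 32.7% (29.7 to 36.0). This was near the 33.0% (29.0 to 37.2) of distal sites with RAD21, beside 26.8% of all MAZ peaks of WT. The 3 sites with a CTCF peak in ΔMAZ were at chr2:61402199-61402409, chr13:23555831-23556041 in an untranslated region of the histone gene Hist1h1d, and chr16:34573613-34574021, with fold enrichments of 4.91, 4.07 and 2.67, and none of these 3 was called in MAZ of ΔCTCF, a count too small to set against the 51.1% of all 846 sites.

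In strength the sites were mostly modest peaks. Fold enrichment, the ratio of fragments at the summit to the local background within 1 library, had a median of 4.69 (4.57 to 4.77) in WT and ran from 2.49 to 29.7. The median was 5.11 at promoter sites (4.97 to 5.11) and 4.79 at distal sites with RAD21 (4.66 to 5.0). A median of 25 fragments lay at the summit, with a range from 16 to 154, over a median background of 4.14. Peaks were ranked over the whole MAZ list of WT into 5 equal groups by fold enrichment, and from the weakest group to the strongest these held 207, 231, 175, 142 and 91 of the 846 sites. The share with a MAZ core was 37.7% (31.4 to 44.5) in the weakest group and 44.0% (34.2 to 54.2) in the strongest, with intervals that overlapped.

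The comparison of WT with ΔCTCF asks whether MAZ was still called at these sites once CTCF had been degraded. It was called at 432 of the 846 sites, 51.1% (47.7 to 54.4), where 66.3% of all MAZ peaks of WT were called. Promoter sites were called at 66.4% (64.7 to 68.1) and distal sites with RAD21 at 63.0% (58.7 to 67.1). The distal sites without RAD21 were thus called less often, with a difference of -15.3 points (-19.1 to -11.6) to promoters and of -12.0 points (-17.3 to -6.50) to distal sites with RAD21. The 432 sites overlapped 427 different MAZ peaks of ΔCTCF, since 10 of them shared a peak with another of the 846 sites. The median background at shared peaks, solved from the columns of the lists, was 2.45 times as high in WT as in ΔCTCF. The lists give no library totals and use of an input control is not given, so whether this ratio reflects depth is not known. The lowest background at any summit, 3.89 in WT and 1.58 in ΔCTCF, had the same ratio of 2.45, and the part of depth in the loss was not tested.

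Strength in WT went with being called. The share called was 34.8% (28.6 to 41.5), 38.5% (32.5 to 44.9), 53.7% (46.3 to 60.9), 67.6% (59.5 to 74.8) and 89.0% (80.9 to 93.9) over the 5 groups, weakest first. Promoter sites were called at 45.8%, 51.9%, 63.8%, 77.1% and 94.5% in the same groups, higher in each of them. Distal sites with RAD21 were called at 41.6%, 50.0%, 68.0%, 75.8% and 97.3%. With strength group held constant, the Mantel-Haenszel odds ratio of being called was 0.614 (0.520 to 0.724) against promoter sites and 0.624 (0.489 to 0.796) against distal sites with RAD21. Holding CpG richness constant as well gave 0.673 (0.547 to 0.827) and 0.602 (0.471 to 0.771). When overlap required 50% of both peaks, the odds ratio against promoter sites was 0.835 (0.721 to 0.968).

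**Figure D4:**
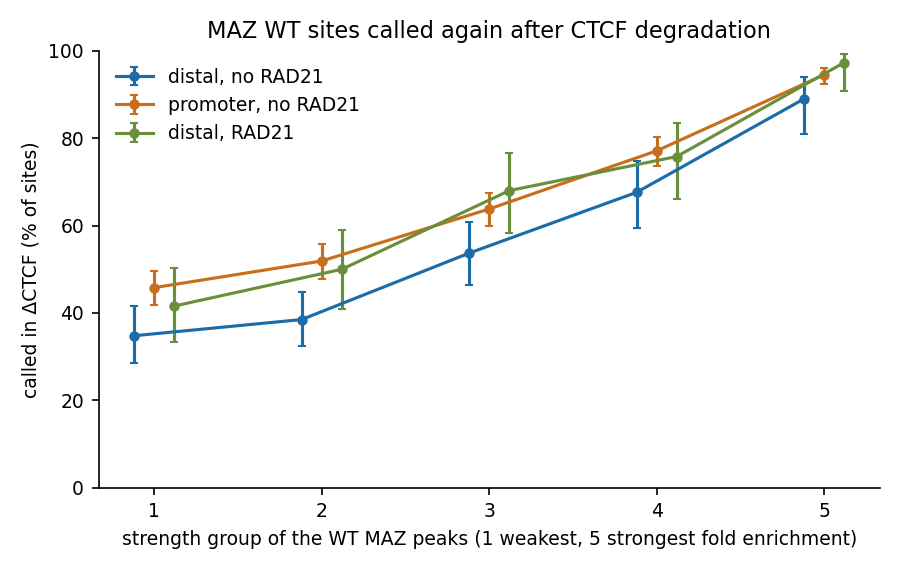
Share of MAZ sites of WT called in ΔCTCF (%, vertical axis) in 5 equal strength groups of the WT MAZ list (horizontal axis, weakest to strongest) for distal sites without RAD21, promoter sites without RAD21 and distal sites with RAD21, with Wilson 95% intervals as bars. The distal sites without RAD21 rise from 34.8% to 89.0% and lie lowest in each group.

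Within the 846 sites, of which 51.1% were called, those in a CpG-rich window were called more often than the rest. Of the CpG-rich sites, 124 of 196, 63.3% (56.3 to 69.7), were called, against 308 of 650, 47.4% (43.6 to 51.2). The odds ratio over strength groups was 1.78 (1.25 to 2.53). The CpG-rich share was near the 66.3% of all MAZ peaks of WT, and that of the rest lay below it. A MAZ core went with a smaller difference that its interval did not separate from none, at 54.0% against 49.0% and an odds ratio of 1.17 (0.872 to 1.57). Intronic sites were called at 51.2% (46.4 to 56.0) and sites outside genes at 52.4% (47.3 to 57.4), with an odds ratio of 0.990 (0.735 to 1.33). Sites within 5 kb of a start gave an odds ratio of 1.13 (0.848 to 1.52) against those farther away. First introns were called at 47.6% (41.0 to 54.4), second introns at 55.4% (44.7 to 65.6) and later introns at 54.5% (45.7 to 63.0). These intervals overlapped, and each holds the 51.1% of all 846 sites.

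At the 432 sites called in both lists the median fold enrichment in ΔCTCF was 6.41 (6.19 to 6.58), with a range from 3.29 to 42.2. In WT the same sites had a median of 5.15 (4.96 to 5.32), and the 414 sites not called in ΔCTCF had 4.33 (4.30 to 4.50). Fold enrichments of the 2 libraries are not on a common scale. The median number of fragments at the summits of the shared sites was 27 in WT and 18 in ΔCTCF, with a median ratio of 1.56, beside the ratio of 2.45 for the background.

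**Figure D5:**
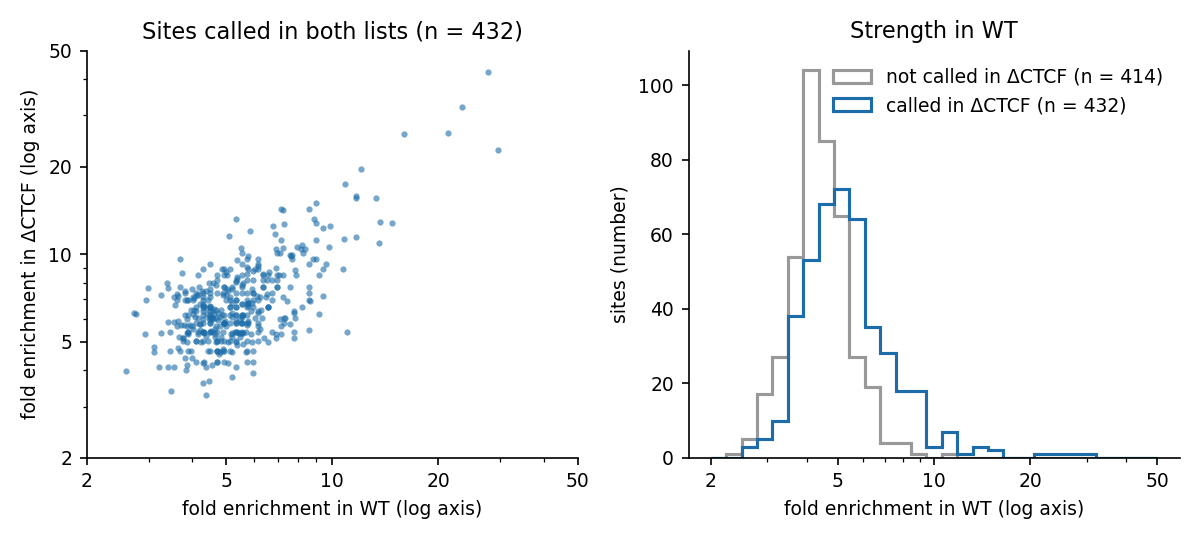
Left, fold enrichment in WT (horizontal, log axis) and in ΔCTCF (vertical, log axis) of the 432 distal MAZ sites without RAD21 called in both lists, 1 point per site. Right, number of sites (vertical axis) by fold enrichment in WT (log axis) for the 432 sites called in ΔCTCF and the 414 not called, whose medians are 5.15 and 4.33.

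The 10 strongest sites in WT were all called in ΔCTCF, beside 94.0% of all MAZ peaks in the strongest group, and 5 of them lay outside genes. The strongest, chr15:79878711-79879256, lay 5083 bp from the start of Gm49412 and had a fold enrichment of 29.7 in WT and 22.8 in ΔCTCF, second among all MAZ peaks of WT. The site at chr4:129381921-129382365, 2282 bp from Gm12980, had 27.8 in WT and 42.2 in ΔCTCF, with 135 and 108 fragments at the summit, and ranked 1 of all 6759 MAZ peaks in ΔCTCF. An intronic site of Ajuba, which encodes a LIM domain scaffold protein, had 23.4 and 32.1 at chr14:54575629-54576073. The Etl4 site at chr2:20508421-20508883 had 21.3 and 26.0, and the site 6554 bp from Mir7225 had 16.0 and 25.9. These 5 sites were also the 5 of highest fold enrichment in ΔCTCF among the 846. Others of the 10 stood at Id3 (14.8 and 12.8), Foxk1, a forkhead transcription factor (13.7 and 12.9), Gm20139 (13.3 and 15.6) and the tubulin gene Tubb5 (12.1 and 19.7). In the full annotation the Gm20139 and Tubb5 summits lay 562 and 100 bp from a transcript start, and so are not distal by it.

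The strongest sites missing from the ΔCTCF list were weaker than these. An intronic site of Lgals1, the gene of galectin-1, had a fold enrichment of 10.8 in WT with 52 fragments at the summit. A site 12313 bp from Ywhag, which encodes a 14-3-3 protein, had 8.80. Those that follow lay near Gm27204 (8.39), 92639 bp from the phosphodiesterase gene Pde4d (8.18) and in an intron of Tmem229b (7.74).

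Some sites gathered at a locus, and the counts called at each are few and stand beside the 51.1% of all 846 sites and the 66.3% of all MAZ peaks of WT. Of the 846, 118 lay in 53 runs in which neighbouring summits were less than 10 kb apart. Runs are given for these sites only, so they do not show that gathering is particular to them. The longest run held 6 sites between chr11:69409450 and chr11:69419017, at Kdm6b, the gene of a histone demethylase that removes the Polycomb mark. From the lowest to the highest coordinate their fold enrichments in WT were 3.22, 4.36, 4.18, 6.91, 3.55 and 4.67, and 4 of the 6 were called in ΔCTCF, the first 2 of them by a single ΔCTCF peak with a fold enrichment of 4.09. The first 3 lay in introns and the others outside the gene, 3976 to 5193 bp from its nearest start. Genes that held 3 or more summits numbered 7. They were Gm20388 with 6, a long readthrough annotation that spans several genes and of whose sites 1 was called in ΔCTCF, and Hip1, Jup, Kdm6b, Mettl27, Rarg and Sept9 with 3 each. All 3 Mettl27 sites were called in ΔCTCF, and 2 of these shared a ΔCTCF peak. At Rarg, which encodes a retinoic acid receptor, the fold enrichments were 6.34, 4.14 and 7.88, and the outer sites were called.

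Gene lists that bear on mESCs were set beside the sites, counting a gene when a site lay in its body or had its start as the nearest. Of all 21924 protein coding genes, 624, or 2.85%, had such a site. Of 31 pluripotency genes 6 did, of 43 genes of Wnt, FGF and TGF-beta signalling 9, of 39 chromatin regulators 7, of 25 genes of MAZ and related zinc fingers 2, of 52 developmental transcription factors 2, and of 17 genes of cohesin and loop extrusion 0. Gene length and expression differ between these lists and were not matched, so the counts are a description.

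Among the pluripotency genes, an intronic site of the T-box gene Tbx3 had a fold enrichment of 7.28 in WT and 6.06 in ΔCTCF. Sites near Tcf3 (5.11), the growth factor gene Fgf4 (4.96), the nuclear receptor gene Nr5a2 (4.29) and the ligand gene Nodal (4.14) were not called in ΔCTCF. In all, 2 of the 6 sites of this list were called, a count too small to set against the 51.1% of all 846 sites. Tcf3 here is the E2A gene. Its symbol has also been used for the pluripotency factor Tcf7l1, which the signalling list holds, so the 6 pluripotency genes include 1 that the list holds by its name only. The site in Jarid2, which encodes a partner of the Polycomb complex and is named after its values were seen, was weak in WT at 2.96 and stood at 6.97 in ΔCTCF.

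The signalling genes held 12 sites, of which 6 were called in ΔCTCF, close to the 51.1% of all 846 sites. The site at Id3, whose product inhibits basic helix-loop-helix factors downstream of BMP, was the strongest, and a site 1044 bp from Smad6, an inhibitory SMAD, followed with 9.84 in WT and 12.5 in ΔCTCF. A further Smad6 site, in an intron, had 5.72 and 9.67. The site in the ligand gene Wnt3, 36134 bp from its start, had 5.93 and was not called in ΔCTCF. A site inside the annotated span of the receptor gene Fgfr2, 1507 bp from the start of Nkx1-2, had 5.34 and 8.20. The other Fgfr2 site also lay in Fam53b, 3619 bp from a Fam53b start. Both count for Fgfr2 by its annotated span alone, as their nearest starts belong to other genes.

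The chromatin regulators also held 12 sites, of which 6 belonged to the Kdm6b run and 7 were called in ΔCTCF, 2 of these by the shared Kdm6b peak, beside 51.1% of all 846 sites. A site whose nearest start was that of the demethylase gene Kdm2b had 7.66 in WT and was not called in ΔCTCF. Sites near Chd4, a nucleosome remodeller, and in Kdm4c, another demethylase, had 7.42 and 7.30 in WT and 6.91 and 5.80 in ΔCTCF. Of the zinc finger genes, Zbtb7a had 2 sites (4.29 and 3.64 in WT) and Klf9 had 1 (4.71), and none of these 3 was called in ΔCTCF. The developmental genes Cdx2 (4.57) and Pax3 (3.89) had 1 intronic site each, neither of them called. All of these zinc finger and developmental sites lay in the 2 weakest strength groups, where 34.8% and 38.5% of the 846 sites were called. Counts this small cannot be set against those shares.

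Read from the other side, the same rule applied to the MAZ list of ΔCTCF gave 1126 distal sites without RAD21 and without CTCF in WT. Of these, 441, or 39.2% (36.4 to 42.0), were called in WT, where 61.6% of all MAZ peaks of ΔCTCF were called in WT and promoter sites of that list at 64.8% (63.1 to 66.4). Distal sites with RAD21 in that list were called at 54.2% (50.1 to 58.2). Of the 3 classes compared, distal sites without RAD21 had the lowest share called in the other list, whichever of these lists the classes were read from.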

How the data were processed

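ChIP-seq of CTCF, MAZ and RAD21 in 4 conditions was read from 12 deposited peak lists, grouped by sample titles. Another 8 of the 20 samples have no list among these and were not used. The authors aligned reads to mm10 (Bowtie 2), filtered them for quality and PCR duplicates (SAMtools) and called narrow peaks with MACS. The lists are 1 per sample. Use of an input control is not given in the sources used here. Each deposited list gives positions, a score (not used), fold enrichment as a ratio, −log10 p, −log10 q and the summit offset. Spike-in scaling did not enter the lists.

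Sites and gene lists were chosen with earlier results of these data known. Overlap of at least 1 bp, checked against bedtools 2.31.1 on simulated data, counted as called. Summits were placed on GENCODE vM21 basic, in the order coding exon, untranslated region, noncoding exon, intron. Sequence came from the mm10 reference. Named sites are the 10 strongest, the 5 strongest missing from ΔCTCF, the 5 highest in ΔCTCF, genes with at least 3 sites, members of the gene lists (at most 5 each), sites at the 1 kb limit, sites in other CTCF lists and the longest run. Fragments and background at each summit were solved from fold enrichment (pseudocount 1) and −log10 p, within 0.001 for all 13024 MAZ peaks. Shares carry Wilson and differences Newcombe intervals, medians an exact order-statistic interval, and odds ratios the interval of Robins, Breslow and Greenland.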

Additional observations from a re-analysis of the deposited data

How the results depend on the processing

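The check covered 11 summary values and 15 alternative settings. Of 84 values, 71 stayed within the 95% interval of the reported value (counts within 1.5 times it) and 13 moved beyond it. Only the odds ratios could turn direction by this measure, and 0 did. Leaving out MAZ peaks of WT found in a knockout MAZ list removed none of the 846 sites. Values read from these sites alone therefore could not change in that setting, and are counted among the 71. The order of the intronic and outside shares turned with protein coding genes only and with starts of the full annotation. Requiring 50% of both peaks to overlap gave shares called in ΔCTCF of 46.9% for distal sites without RAD21 and 56.4% for promoter sites, and an odds ratio of 0.835. With gaps of up to 500 bp counted as overlap, promoter sites were called at 70.4%, and at 64.0% when the MAZ list of ΔCTCF was shortened to the length of that of WT. With −log10 q of at least 5 the median fold enrichment was 5.03. Beyond 2.5 kb from a start, 19.0% were CpG-rich. With protein coding genes only, 44.7% were intronic and 49.9% outside genes. Within 100 bp of the summit, 55.7% held a MAZ core. Starts of the full annotation, chosen after seeing the data as were the strata with CpG richness and the MAZ core, gave 45.6% intronic, 48.7% outside genes and 18.5% CpG-rich. The odds ratio ranged from 0.535 to 0.835 against promoter sites and from 0.561 to 0.703 against distal sites with RAD21.

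The cause of these shifts was not tested. No paired analysis was possible because there was 1 list per antibody and condition. The lists give no library totals, and the absence of a peak in ΔCTCF or in a RAD21 list is the absence of a call, not of binding.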
